A study of Arabidopsis thaliana with 12 samples.

Results

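Transcript levels in whole seedlings of the Arabidopsis thaliana mutant emf1-2 were set against those of wild-type Col-0 (WT) seedlings at 10 days after germination (DAG). The comparison rests on 6 of the 12 RNA-seq libraries of the series, the 3 labelled emf1-2 and the 3 labelled WT, and covers all 33602 genes of the table. Seedlings of both genotypes were grown in long days (16 h light, 8 h darkness) and 22 °C, on MS plates with 1% sucrose. Each library was an independent biological replicate according to the study's methods. The double mutant clf28swn7, with mutations in the PRC2 methyltransferases CLF and SWN, was grown in the same way and is used below only to show where emf1-2 differed from another Polycomb mutant (3 libraries).

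Polycomb group (PcG) proteins keep developmental genes silent outside the organ and stage in which they are needed. PRC2 methylates histone H3, PRC1 ubiquitinates histone H2A, and EMBRYONIC FLOWER 1 (EMF1) is a plant protein that acts beside them and contributes to compact, silent chromatin. Plants without EMF1 are known for skipping the rosette and forming flower-like organs soon after germination, and emf1-2 is described as a severe mutant whose shoot does not pass into vegetative growth while its root resembles that of WT. The material was the whole seedling, so the balance of shoot and root tissue can differ between the genotypes, and in bulk RNA a smaller number of cells of a type and less RNA per cell cannot be told apart.

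Expression is given as FPKM, a fragment density scaled to exon length and to the mapped reads of the library, so that levels can be set side by side between genes. The sum of FPKM per library was between 625465 and 660564 in emf1-2 and between 662130 and 667535 in WT, and between 19255 and 19368 genes reached 1 FPKM in emf1-2 libraries, against 19066 to 19308 in WT libraries. The methods give only an approximate number of reads, the same for every library, and the values hold no read counts, so no counting interval is given. Across genes, log2(FPKM + 1) correlated with r between 0.976 and 0.985 among emf1-2 libraries, between 0.988 and 0.992 among WT libraries and between 0.782 and 0.812 across the genotypes. WT replicate 1 stood apart in organelle transcripts: plastid-encoded genes made up 0.042 to 0.068% of the FPKM in emf1-2, and 2.41, 0.271 and 0.195% in WT replicates 1, 2 and 3. The sample labels name polyadenylated RNA whereas the methods name a total RNA kit, which bears on organelle and non-polyadenylated transcripts. Both leaf and root transcripts were present in WT, such as the antenna gene CAB1 with 16633 to 18833 FPKM and the endodermis gene CASP1 with 58.9 to 70.4 FPKM, and both were present at lower levels in emf1-2. EMF1 itself (AT5G11530, chromosome 5, 3695792 to 3701549 of TAIR10.1) had 47.03, 57.4 and 46.2 FPKM in emf1-2 seedlings, against 7.31, 8.79 and 8.05 FPKM in WT seedlings, all 3 emf1-2 libraries lying above all WT libraries (log2 fold change 2.5 ± 0.09 SE, limma adjusted p = 2.21e-09). A level above WT gives no check of a mutant allele, so the group of each library rests on its label.

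On the deposited scale about as many genes were higher as lower in emf1-2 than in WT. Differences were tested with limma on log2(FPKM + 1), and a gene is called higher or lower where the log2 fold change was at least 1 in size with an unadjusted p below 0.05. Of 21227 genes tested, 2909 (13.7%) were higher and 2634 (12.4%) lower in emf1-2. The 3 libraries of emf1-2 lay entirely above or below those of WT for 16003 tested genes (75.4%), and for 2896 of the higher and 2625 of the lower genes. Over all tested genes the log2 fold change had a median of 0.19, and of 0.019 on a median-of-ratios scale, with 2284 genes higher and 3146 lower, so that the higher genes made up 52.5% of the calls on the deposited scale and 42.1% on the other. Many changes were large: 901 genes were higher and 822 lower by at least 2 on the log2 scale, and 178 and 80 by at least 4. The higher genes held 25.4 to 27.2% of all FPKM in emf1-2 libraries, against 5.49 to 6.25% in WT libraries, while the lower genes held 7.43 to 8.59% in emf1-2 and 35.5 to 38.1% in WT.

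A part of the changes was close to a switch between off and on. Below 1 FPKM in all WT libraries and at or above 1 FPKM in all emf1-2 libraries were 839 genes, of which 678 were called, and 141 of them reached 10 FPKM in every emf1-2 library. The reverse held for 739 genes, of which 586 were called, and 35 of them had at least 10 FPKM in every WT library. Listed at 0 in all WT libraries and at 10 FPKM or more in every emf1-2 library were 21 genes. By their annotation these included the carpel regulator CRC, the seed genes EM1, ECP63 and ABI4, the seed vacuole aquaporin TIP3;1, the defensin LCR67 and the bHLH factor CES. The 35 genes of the opposite class included the root signalling peptides RGF6 and RGF9, the ferric reductase FRO4, the guard-cell potassium channel KAT1, the expansins EXPA5 and EXPA16 and the aliphatic glucosinolate enzyme CYP79F1.

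The 10 largest increases among separated genes included lipid transfer, flower and seed genes. LTP4 (AT5G59310, chromosome 5, 23924990 to 23925957), a secreted lipid transfer protein, had 1955, 2214 and 2688 FPKM in emf1-2 seedlings, against 0.503, 1.02 and 1.03 FPKM in WT seedlings (log2 fold change 10.27 ± 0.35 SE), and its neighbour in the genome LTP3 had 2331, 2209.7 and 1860.2 FPKM in emf1-2 seedlings, against 9.01, 6.39 and 5.03 FPKM in WT seedlings (8.12 ± 0.22). Both were among the most abundant transcripts of every emf1-2 library, and these similar neighbours may share reads. AT4G12870, annotated as a GILT thiol reductase, had 1621, 1577 and 1502 FPKM in emf1-2 seedlings, against 2.66, 4.497 and 2.17 FPKM in WT seedlings (8.61 ± 0.18). The late embryogenesis abundant (LEA) protein genes LEA18 and AT3G02480 had log2 fold changes of 7.95 and 7.94, and the uncharacterised AT1G68250 had 7.38. The other members of the top 10 were the flower genes AP3, CRC, SEP2 and PI, described below.

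The 10 largest decreases included genes of leaves, of gibberellin response and of glucosinolate breakdown. The antenna gene LHB1B1 had 26.4, 16.6 and 6.64 FPKM in emf1-2 seedlings, against 3529, 3217 and 3259 FPKM in WT seedlings (log2 fold change -7.75 ± 0.36 SE), and CA2, a carbonic anhydrase, had a log2 fold change of -5.64. GASA6, a small gibberellin-regulated peptide, had 1.59, 2.35 and 1.15 FPKM in emf1-2 seedlings, against 378, 334 and 305 FPKM in WT seedlings (-7.0 ± 0.16). TGG2, a myrosinase that cleaves glucosinolates when tissue is damaged, had 15.1, 3.97 and 3.95 FPKM in emf1-2 seedlings, against 611, 546 and 546 FPKM in WT seedlings (-6.27 ± 0.35), and ESM1, which steers the products of that cleavage, had 12.1, 0.750 and 17.7 FPKM in emf1-2 seedlings, against 343, 406 and 367 FPKM in WT seedlings (-5.62 ± 0.65). Only genes whose groups did not overlap, as held for 75.4% of all tested genes, could enter this set. AT3G16670 of the Pollen Ole e 1 family (-6.59), AT1G23130 of the polyketide cyclase family (-5.87), AT5G16030 (-5.69), the glycine-rich protein gene AT1G04800 (-5.61) and AT5G46900 of the 2S albumin superfamily (-5.47) completed this set.

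**Figure D1:**
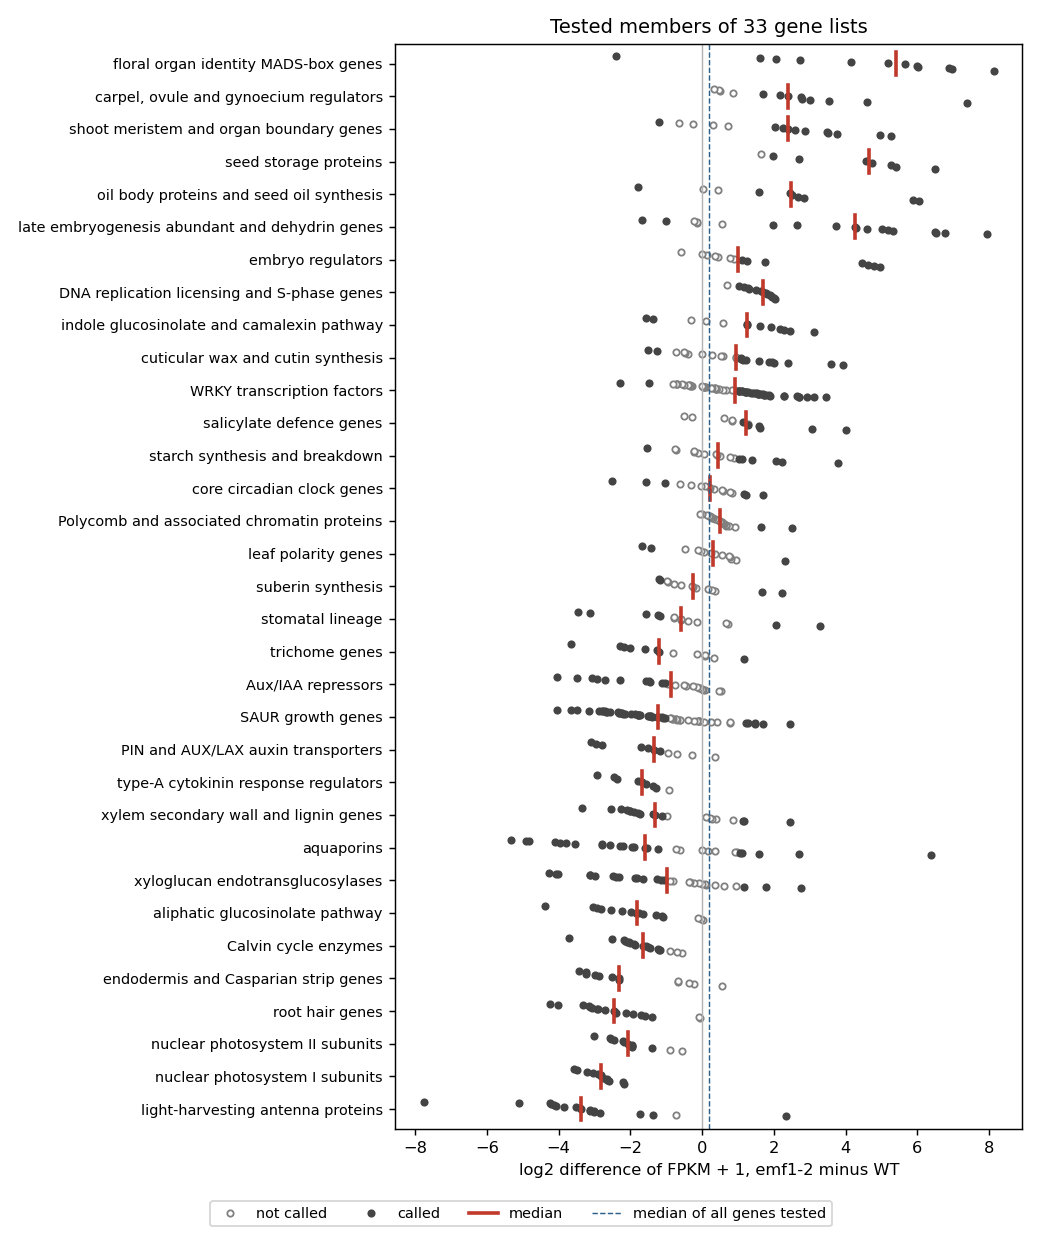
Log2 fold change of emf1-2 over WT (log2(FPKM + 1) scale, horizontal axis) for the tested members of 33 gene lists, 1 row a list and 1 point a gene, filled where the gene was called, with a bar at the median of each list and a dashed line at the median of all tested genes. Floral organ identity genes (median 5.42) and seed storage genes (4.66) sit at the high end, and the light-harvesting antenna genes (-3.36) and photosystem I subunits (-2.83) at the low end, against 0.19 for all tested genes.

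Flower development genes were among the most strongly raised. MADS-box factors specify floral organs in combinations, with AP1 and CAL acting in the floral meristem and sepals, AP3 and PI in petals and stamens, AG in stamens and carpels, SHP1, SHP2 and STK in carpels and ovules, and the SEP factors in all whorls. Of the 12 organ identity genes, all of which were tested, 11 were higher and 1 was lower. Their summed level was 993, 1117 and 992 FPKM in emf1-2 seedlings, against 11.6, 12.6 and 10.4 FPKM in WT seedlings. AP3 (AT3G54340, chromosome 3, 20119140 to 20121314) had 333, 378 and 330.1 FPKM in emf1-2 seedlings, against 0.204, 0.143 and 0.364 FPKM in WT seedlings (log2 fold change 8.14 ± 0.13 SE, limma adjusted p = 1.21e-11). PI, its partner, had 210.2, 227 and 211 FPKM in emf1-2 seedlings, against 0.662, 0.899 and 0.955 FPKM in WT seedlings (6.89 ± 0.09). Every WT library was below 1 FPKM for both genes of this pair, and the emf1-2 libraries varied little. SEP2 had 115, 139.8 and 126 FPKM in emf1-2 seedlings, against 0, 0.0350 and 0.0382 FPKM in WT seedlings (6.96), SEP1 had 57.7, 77.3 and 69.9 FPKM in emf1-2 seedlings, against 0.0369, 0.138 and 0.0376 FPKM in WT seedlings (6.01) and SEP3 had 88.9, 93.6 and 96.2 FPKM in emf1-2 seedlings, against 4.402, 5.79 and 2.93 FPKM in WT seedlings (4.16). The carpel and ovule side was also on. AG had 69.5, 68.8 and 48.8 FPKM in emf1-2 seedlings, against 0.228, 0.337 and 0.167 FPKM in WT seedlings (5.65 ± 0.13), STK had 62.6, 69.6 and 60.04 FPKM in emf1-2 seedlings, against 0, 0 and 0.0360 FPKM in WT seedlings (6.0), and SHP2 and SHP1 had log2 fold changes of 5.18 and 2.72. CAL and AP1 reached lower levels, 3.29, 3.55 and 2.78 FPKM for CAL and 2.27, 1.703 and 2.49 FPKM for AP1 in emf1-2 seedlings, against 0 in all 3 WT libraries for CAL and 0.0863, 0 and 0 FPKM for AP1 in WT seedlings (log2 fold change 1.61). SEP4 was the exception, with 0.143, 0.113 and 0.174 FPKM in emf1-2 seedlings, against 5.48, 4.34 and 5.498 FPKM in WT seedlings (-2.41 ± 0.12).

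**Figure D2:**
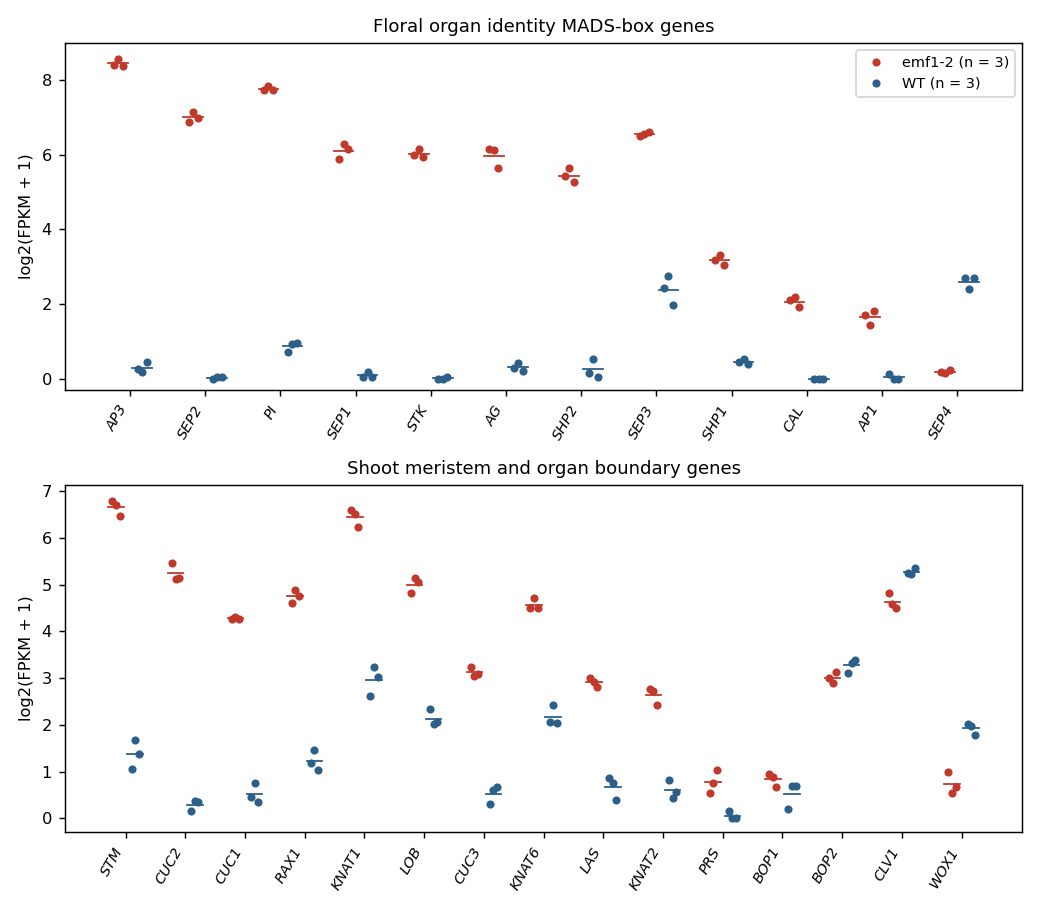
Expression in each library (vertical axis, log2(FPKM + 1)) of floral organ identity genes (upper panel) and shoot meristem and boundary genes (lower panel), with emf1-2 libraries left of WT libraries, 1 point a library and a line at each group mean. AP3 lies at 333, 378 and 330.1 FPKM in emf1-2, against 0.204, 0.143 and 0.364 FPKM in WT, and STM at 109.9, 103 and 87.4 FPKM in emf1-2, against 1.09, 2.19 and 1.604 FPKM in WT.

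Carpel regulators followed the organ identity genes. Of 16 such genes 13 were tested, 9 were higher and none was lower (median log2 fold change 2.39, against 0.19 for all tested genes). CRC, a YABBY factor of carpels and nectaries, had 217, 173 and 124 FPKM in emf1-2 seedlings and was listed at 0 in all 3 WT libraries. The bHLH factors HEC3, ALC and SPT, which pattern the transmitting tract and fruit valves, had log2 fold changes of 4.6, 3.53 and 2.75, and NGA1, which promotes the style, had 2.17. SUP, which limits the stamen whorl, had 6.81, 6.296 and 4.89 FPKM in emf1-2 seedlings and was listed at 0 in all 3 WT libraries. The anther and pollen wall list gave a different picture: only 3 of its 19 genes reached the level for testing, and 1 of them was higher.

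Regulators of flowering time were mixed. Of 26 genes 22 were tested, 7 were higher and 2 lower, with a median of 0.24. FLC (AT5G10140, chromosome 5, 3173382 to 3179448), a repressor of flowering and a classical Polycomb target, had 17.95, 26.1 and 21.4 FPKM in emf1-2 seedlings, against 2.76, 3.19 and 3.52 FPKM in WT seedlings (log2 fold change 2.44 ± 0.13 SE). SVP, a second repressor, moved the other way, with 10.6, 6.75 and 9.72 FPKM in emf1-2 seedlings, against 62.2, 57.3 and 62.5 FPKM in WT seedlings (-2.64 ± 0.14). SPL3, an age-dependent promoter of flowering, had 0.366, 0.521 and 0.663 FPKM in emf1-2 seedlings, against 12.2, 9.41 and 10.4 FPKM in WT seedlings (-2.94), whereas its relative SPL4 had a log2 fold change of 1.7. SOC1, where flowering signals meet, had 12.2, 11.4 and 13.3 FPKM in emf1-2 seedlings, against 14.5, 13.8 and 19.2 FPKM in WT seedlings and did not pass the test. The floral meristem gene LFY and the florigen genes FT and TSF did not reach the level for testing, 1 FPKM in 3 or more of the 12 libraries. A gene below that level can still reach 1 FPKM in single emf1-2 libraries, so no change is given for these genes.

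Shoot meristem and organ boundary genes were raised as a group, with 10 of 15 tested genes higher and 1 lower (median 2.39). STM (AT1G62360, chromosome 1, 23058582 to 23062063), the homeodomain factor that keeps meristem cells undifferentiated, had 109.9, 103 and 87.4 FPKM in emf1-2 seedlings, against 1.09, 2.19 and 1.604 FPKM in WT seedlings (log2 fold change 5.28 ± 0.15 SE). KNAT1, a related KNOX factor, had 96.1, 89.5 and 74.6 FPKM in emf1-2 seedlings, against 5.09, 8.48 and 7.07 FPKM in WT seedlings (3.49 ± 0.16). CUC2 and CUC1, NAC factors that separate neighbouring organs, had log2 fold changes of 4.95 and 3.75, with 43.3, 33.6 and 34.4 FPKM in emf1-2 seedlings, against 0.121, 0.298 and 0.267 FPKM in WT seedlings for CUC2. The stem cell genes WUS and CLV3 did not reach the level for testing. BRC1, a TCP factor that holds axillary buds dormant, had 29.97, 39.1 and 25.9 FPKM in emf1-2 seedlings, against 0.326, 0.320 and 0.383 FPKM in WT seedlings (4.58 ± 0.13), while the TCP family as a whole had 3 higher and 6 lower genes of 20 tested. Of the leaf polarity genes, KAN2 was higher (2.3) and YAB3 lower (-1.68), and most did not pass the test.

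Genes of DNA replication rose nearly without exception. Of 15 genes for replication licensing and S phase, 14 were higher and none was lower, with a median log2 fold change of 1.69, and their summed level was 418, 429 and 372 FPKM in emf1-2 seedlings, against 97.96, 120.3 and 111 FPKM in WT seedlings. MCM2 (AT1G44900, chromosome 1, 16970214 to 16974753), a subunit of the replicative helicase, had 26.9, 28.01 and 25.6 FPKM in emf1-2 seedlings, against 5.06, 6.72 and 5.75 FPKM in WT seedlings (log2 fold change 2.03 ± 0.09 SE), and RNR1, a subunit of ribonucleotide reductase, had 73.9, 70.96 and 60.9 FPKM in emf1-2 seedlings, against 15.4, 17.5 and 16.3 FPKM in WT seedlings (2.0 ± 0.09). Cyclins and mitotic kinases moved less, 9 of 32 tested genes being higher and 1 lower (median 0.53). CYCD4;2 had a log2 fold change of 1.99, and CYCD6;1, a cyclin of formative divisions in the root, had -1.79.

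Seed genes formed a further group. Seeds store 12S cruciferins and 2S albumins, keep oil in bodies coated by oleosins and dry out under the protection of LEA proteins and dehydrins, and these genes are normally shut after germination. Of 8 storage protein genes, 7 were higher, none was lower and the median log2 fold change was 4.66. CRA1 (AT5G44120, chromosome 5, 17756238 to 17758336), a cruciferin, had 317, 113 and 133 FPKM in emf1-2 seedlings, against 0.562, 0.317 and 2.16 FPKM in WT seedlings (6.51 ± 0.41 SE), and CRU3 had 157, 32.7 and 35.1 FPKM in emf1-2 seedlings, against 0.618, 0.453 and 3.198 FPKM in WT seedlings (4.75 ± 0.55). Replicate 1 held the highest emf1-2 value for both of these cruciferins, and no emf1-2 library overlapped WT for them. The cruciferin CRB, also called higher, had 17.3, 0.989 and 2.66 FPKM in emf1-2 seedlings, against 0.0324, 0 and 1.06 FPKM in WT seedlings. The groups of CRB overlapped. SESA3, a 2S albumin, had 39.9, 1.48 and 1.35 FPKM in emf1-2 seedlings, against 0.414, 0.579 and 2.46 FPKM in WT seedlings and was not called. It passed without replicate 2 (log2 fold change 2.31) or replicate 3 (2.35) of emf1-2. Without replicate 1 of emf1-2, which held the high value, the log2 fold change was 0.29 and SESA3 was not called. Of 10 genes for oil bodies and seed oil, 7 were higher and 1 lower. The oleosin gene OLEO1 had 79.2, 92.7 and 74.6 FPKM in emf1-2 seedlings, against 0.175, 0.163 and 1.01 FPKM in WT seedlings (5.89 ± 0.21), FAD3, a fatty acid desaturase that also works in leaves and roots, had a log2 fold change of -1.8, and FAE1, which elongates seed fatty acids, did not pass the test.

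LEA and dehydrin genes went the same way, 13 of 19 being higher and 2 lower (median 4.26). Their summed level was 2737, 2286 and 1969.9 FPKM in emf1-2 seedlings, against 1329.8, 1554 and 1584 FPKM in WT seedlings. LEA18 had 382, 318 and 183 FPKM in emf1-2 seedlings, against 0.218, 0.102 and 0.111 FPKM in WT seedlings (7.95 ± 0.21 SE). EM1, an LEA gene of drying seeds, had 178, 88.9 and 43.5 FPKM in emf1-2 seedlings and was listed at 0 in all 3 WT libraries, and the dehydrin RAB18 had 278, 169.5 and 126 FPKM in emf1-2 seedlings, against 5.77, 3.28 and 5.35 FPKM in WT seedlings (5.0 ± 0.33). PER1, a seed peroxiredoxin, had 133, 162 and 73.6 FPKM in emf1-2 seedlings, against 0, 0.0502 and 0.164 FPKM in WT seedlings (6.78 ± 0.24). The members that were lower, ERD14 (-1.66) and COR47 (-1.02, but -0.97 and not called on the TPM scale, and -0.92, -0.98 and -0.98 and not called without emf1-2 replicate 3, WT replicate 2 or WT replicate 3), are dehydrins known mainly for cold and drought in leaves. Of the 14 tested embryo regulators, 7 were higher and none was lower. ABI3, ABI4 and ABI5, the transcription factors through which abscisic acid acts in seeds, had 37.5, 26.96 and 19.7 FPKM, 31.1, 20.9 and 19.9 FPKM and 97.5, 80.1 and 77.2 FPKM in emf1-2 seedlings, against 0, 0.0452 and 0.0181 FPKM for ABI3, 0 in all libraries for ABI4 and 1.89, 1.33 and 2.07 FPKM for ABI5 in WT seedlings. The log2 fold changes of ABI3 and ABI5 were 4.78 and 4.96. PLT5, an AP2 factor of embryos and young organs, had 96.99, 64.9 and 59.7 FPKM in emf1-2 seedlings, against 2.13, 2.45 and 2.46 FPKM in WT seedlings (4.45). FUS3 stayed near 1 FPKM in emf1-2 and was not called, and LEC1, which acts upstream in the embryo, was listed at 0 in all 6 libraries.

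Some promoters of these seed genes carry motifs that are known from seed expression, shown here for a cruciferin, an albumin and an LEA gene. RefSeq sequence of TAIR10.1, whose nuclear chromosomes match TAIR10, was searched on both strands from 250 bases before to 50 bases after the annotated start for the RY element CATGCA, bound by B3 factors such as ABI3, the G-box CACGTG, bound by bZIP factors such as ABI5, and the I-box GATAAG, known from light-regulated genes. Matches are in capitals, overlapping matches were each counted, and each sequence is printed 5′ to 3′ on the strand of its gene.
CRA1, chr5:17758287-17758586, minus strand: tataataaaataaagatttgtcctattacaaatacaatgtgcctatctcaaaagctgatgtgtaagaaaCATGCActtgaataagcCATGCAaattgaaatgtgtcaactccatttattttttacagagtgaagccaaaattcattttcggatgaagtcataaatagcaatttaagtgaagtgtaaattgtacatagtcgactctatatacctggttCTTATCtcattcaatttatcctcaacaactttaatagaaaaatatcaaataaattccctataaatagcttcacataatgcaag
SESA1, chr4:13607079-13607378, plus strand: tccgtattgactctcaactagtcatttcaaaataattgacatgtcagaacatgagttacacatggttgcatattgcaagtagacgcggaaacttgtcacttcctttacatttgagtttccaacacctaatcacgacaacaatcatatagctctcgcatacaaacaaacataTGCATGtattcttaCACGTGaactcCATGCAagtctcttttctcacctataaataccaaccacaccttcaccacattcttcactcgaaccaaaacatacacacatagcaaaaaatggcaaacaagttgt
LEA18, chr2:14863363-14863662, minus strand: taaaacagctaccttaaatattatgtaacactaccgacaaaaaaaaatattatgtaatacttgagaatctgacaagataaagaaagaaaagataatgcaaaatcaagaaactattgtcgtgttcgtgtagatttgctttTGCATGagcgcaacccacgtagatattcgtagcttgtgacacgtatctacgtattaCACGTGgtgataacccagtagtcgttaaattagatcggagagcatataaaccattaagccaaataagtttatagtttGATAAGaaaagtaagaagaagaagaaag
SESA1 thus holds a G-box between a pair of RY elements, LEA18 an RY element, a G-box and, past its start, an I-box, and CRA1 a pair of RY elements and an I-box. An RY element was present in 87.5% of the 8 storage protein promoters and 80.0% of the 10 oil body promoters, but in 21.1% of the 19 LEA promoters, against 9.08% of 21028 promoters of tested genes. Lists with mostly lower genes, described below, also held it, in 26.3% of root hair and 15.4% each of endodermis and photosystem I promoters. The shares were 10.5% for Calvin cycle, 7.69% for photosystem II and 0.0% for antenna promoters. A G-box was present in 62.5% of storage protein and 47.4% of LEA promoters and in 2 of the 10 oil body promoters, against 8.83% of all. Of all genes higher in emf1-2, 12.2% had an RY element and 11.8% a G-box, and of all lower genes 12.03% and 7.31%. The telobox AAACCCTA, the GAGA repeat GAGAGAGA and the CArG box (CC and GG around a run of A or T) were searched as well. Higher genes had them in 5.69%, 8.39% and 3.21% of promoters, against 5.63%, 8.52% and 3.19% of all promoters of tested genes. For lower genes the shares were 2.71%, 7.51% and 3.03%. A match describes these letters and is not a shown site.

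The photosynthetic apparatus showed a broad decrease. Light-harvesting antenna proteins bind chlorophyll around photosystems I and II, which feed electrons and ATP to carbon fixation in the Calvin cycle. Of 19 antenna genes 17 were lower and 1 higher, with a median log2 fold change of -3.36. Their summed level was 3652, 2782 and 2423 FPKM in emf1-2 seedlings, against 46394, 42362 and 42032 FPKM in WT seedlings. CAB1 (AT1G29930, chromosome 1, 10477885 to 10479114), a main antenna protein of photosystem II, had 1304, 878 and 698 FPKM in emf1-2 seedlings, against 18833, 17303 and 16633 FPKM in WT seedlings (log2 fold change -4.24 ± 0.19 SE, limma adjusted p = 8.87e-09). Replicate 3 of emf1-2 was lowest for CAB1 and LHB1B1, and all emf1-2 libraries lay far below WT. The member that was higher was LHCB4.3, with 44.95, 46.01 and 50.8 FPKM in emf1-2 seedlings, against 8.27, 9.99 and 7.39 FPKM in WT seedlings (2.34 ± 0.11), whose close relative LHCB4.2 had a log2 fold change of -5.11.

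**Figure D3:**
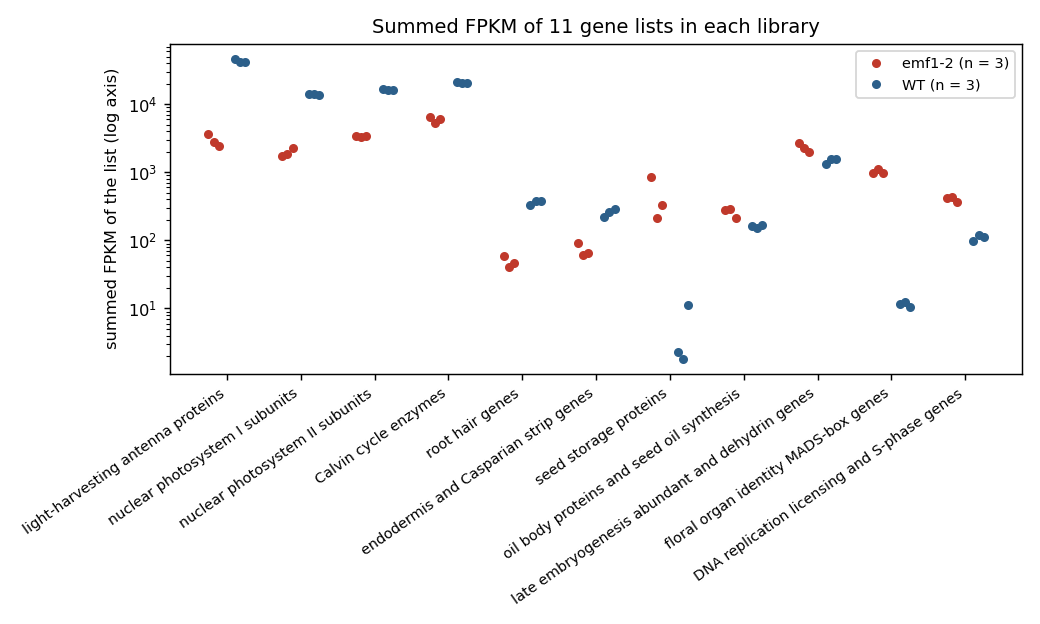
Summed FPKM of the members of 11 gene lists (vertical axis, log scale) in each library, with emf1-2 left of WT and 1 point a library. For the antenna genes the sums are 3652, 2782 and 2423 FPKM in emf1-2 seedlings, against 46394, 42362 and 42032 FPKM in WT seedlings, and for the DNA replication genes they are 418, 429 and 372 FPKM in emf1-2 seedlings, against 97.96, 120.3 and 111 FPKM in WT seedlings.

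All 13 nuclear genes of photosystem I subunits and 11 of 13 of photosystem II were lower, with medians of -2.83 and -2.05. PSAD-2, the docking site of ferredoxin in photosystem I, had 42.05, 45.4 and 52.3 FPKM in emf1-2 seedlings, against 557, 579 and 543 FPKM in WT seedlings (-3.56 ± 0.11 SE). In photosystem II the oxygen-evolving subunit PSBQA had 181, 171 and 172 FPKM in emf1-2 seedlings, against 1084, 1016 and 1028 FPKM in WT seedlings (-2.57 ± 0.10), and NPQ4 and PSBP-2 did not pass the test. The PSBQA promoter is printed as an example from the lower genes, with the same motifs in capitals.
PSBQA, chr4:11334102-11334401, plus strand: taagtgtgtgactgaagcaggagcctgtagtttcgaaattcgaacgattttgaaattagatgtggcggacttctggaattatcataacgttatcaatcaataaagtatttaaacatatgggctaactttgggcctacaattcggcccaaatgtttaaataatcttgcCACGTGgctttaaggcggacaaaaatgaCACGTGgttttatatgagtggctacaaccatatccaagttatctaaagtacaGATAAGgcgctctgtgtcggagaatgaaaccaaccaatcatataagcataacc
It holds a pair of G-boxes before its start, an I-box that spans the start, and no RY element. An I-box was present in 61.5% of photosystem I promoters, 38.5% of photosystem II promoters and 31.6% of antenna promoters, against 14.9% of all promoters of tested genes, 19.1% of lower and 14.4% of higher genes. Lists outside photosynthesis also held the I-box, in 30.8% of endodermis, 26.7% of DNA replication and 23.1% of carpel promoters, but in 5.26% of root hair promoters. A G-box was present in 61.5% of photosystem II, 30.8% of photosystem I and 26.3% of antenna promoters.

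Most carbon fixation and pigment genes were lower as well. Of 19 Calvin cycle genes 16 were lower and none was higher (median -1.64). RBCS2B, a small subunit of Rubisco, had 201, 164 and 202 FPKM in emf1-2 seedlings, against 2469, 2508 and 2498 FPKM in WT seedlings (-3.72 ± 0.11 SE), and RBCS1A had a log2 fold change of -1.64. Photorespiration, which recycles the product of Rubisco's oxygenase side reaction, had 8 lower genes of 11 and none higher. Of 17 chlorophyll synthesis and regulator genes 11 were lower. The regulators of chloroplast development were among them, with 5.21, 4.93 and 7.62 FPKM in emf1-2 seedlings, against 58.7, 57.2 and 60.1 FPKM in WT seedlings for GLK1 (-3.13 ± 0.14) and 2.39, 0.995 and 0.312 FPKM in emf1-2 seedlings, against 20.3, 18.2 and 18.6 FPKM in WT seedlings for CGA1 (-3.27 ± 0.29). PORA was the member that was higher, with 4.66, 5.56 and 3.82 FPKM in emf1-2 seedlings, against 0.263, 0.398 and 0.252 FPKM in WT seedlings (2.11), and encodes the protochlorophyllide reductase of etiolated seedlings. Of 94 tested plastid-encoded genes 81 were lower and none higher (median -2.11). That count was 66 without WT replicate 1, whose plastid share stood apart, and the summed plastid FPKM was 261, 283 and 451 FPKM in emf1-2 seedlings, against 15951, 1811 and 1291 FPKM in WT seedlings.

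Sugar and starch genes split by member. Of 18 starch genes 6 were higher and 1 lower, and of 21 tested sugar transporters 8 were higher and 4 lower. APL3, a large subunit of ADP-glucose pyrophosphorylase that works in sink tissue, had 82.4, 66.6 and 62 FPKM in emf1-2 seedlings, against 3.93, 4.14 and 4.36 FPKM in WT seedlings (3.78 ± 0.14 SE), while APL1, the form of green leaves, had a log2 fold change of -1.53. STP1, a hexose uptake carrier of guard cells and roots, had 27.4, 23.5 and 22.6 FPKM in emf1-2 seedlings, against 303, 271 and 278 FPKM in WT seedlings (-3.49 ± 0.23). SWEET11, which exports sucrose from leaf phloem parenchyma, was lower (-3.02), and SWEET1, a glucose uniporter, was higher, with 161, 221 and 225 FPKM in emf1-2 seedlings, against 19.4, 18.5 and 19 FPKM in WT seedlings (3.33 ± 0.12).

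Most root hair and endodermis genes fell. Of 19 tested root hair genes 17 were lower and none higher (median log2 fold change -2.45), and their sum was 58.02, 40.04 and 46.4 FPKM in emf1-2 seedlings, against 328, 379.9 and 379.6 FPKM in WT seedlings. PRP3 (AT3G62680, chromosome 3, 23182722 to 23184042), a proline-rich wall protein of root hairs, had 8.33, 1.603 and 4.76 FPKM in emf1-2 seedlings, against 87.8, 104 and 101 FPKM in WT seedlings (-4.24 ± 0.36 SE), and XTH14, a wall-modifying enzyme of hairs, had 5.43, 1.87 and 3.61 FPKM in emf1-2 seedlings, against 65.9, 70.8 and 74.4 FPKM in WT seedlings (-4.02 ± 0.25). RSL4, the bHLH factor that sets hair length, had 0.516, 0.412 and 0.439 FPKM in emf1-2 seedlings, against 2.52, 2.81 and 3.101 FPKM in WT seedlings (-1.39 ± 0.11). The cellulose synthase-like gene CSLD3 and RHD6, which starts hair formation, did not pass the test. Of 13 endodermis and Casparian strip genes 8 were lower and none higher (median -2.32). CASP1, a scaffold of the Casparian strip, had 11.1, 2.57 and 4.03 FPKM in emf1-2 seedlings, against 58.9, 63.6 and 70.4 FPKM in WT seedlings (-3.44 ± 0.35). The endodermal regulators SHR and MYB36 did not pass the test, and SCR, with 28.3, 28.9 and 25.01 FPKM in emf1-2 seedlings, against 17.02, 18.1 and 19.5 FPKM in WT seedlings, lay above WT in all 3 libraries without reaching the fold threshold.

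Other root groups had mixed calls, to be read beside the 13.7% higher and 12.4% lower of all tested genes. Of 12 tested genes of the root meristem and cap 2 were higher and 3 lower (median 0.08), with 1 lower without emf1-2 replicate 2, and PLT1, WOX5 and SMB, which mark the root stem cell region and the cap, did not pass the test. PLT3, which also acts in shoot organs, was higher (2.38). Of 14 suberin genes 2 were higher and 2 lower, 14.3% each way and so near the shares of all tested genes. The lower ones numbered 4 with median-of-ratios scaling, without emf1-2 replicate 3 or without WT replicate 1, and 5 at a pseudocount of 0.1. Of 19 tested root ion transporters 4 were higher and 6 lower, a mixed group in which loading and uptake carriers differed. NRT1.5, which loads nitrate into the xylem, had 5.64, 6.297 and 5.22 FPKM in emf1-2 seedlings, against 72.97, 101 and 106 FPKM in WT seedlings (-3.8 ± 0.13 SE), and IRT1, the iron uptake carrier of the root epidermis, had 0.0673, 0.428 and 0.233 FPKM in emf1-2 seedlings, against 11.8, 14.4 and 8.22 FPKM in WT seedlings (-3.3 ± 0.39). The nitrate uptake partner NRT3.1 (1.37) and the sulfate carrier SULTR1;2 (1.24) were higher. Of 16 iron genes 2 were higher and 1 lower (12.5% and 6.25%), no more than among all tested genes. FER2, the ferritin known from seeds, had 39.5, 26.2 and 22.9 FPKM in emf1-2 seedlings, against 1.02, 1.12 and 1.21 FPKM in WT seedlings (3.82 ± 0.21), and FER1, FER3 and FER4 did not pass the fold threshold.

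In the shoot epidermis, more stomatal and trichome genes were lower than higher, and more cuticle genes were higher than lower. FAMA, which completes guard cells, had 1.12, 1.68 and 1.45 FPKM in emf1-2 seedlings, against 24.7, 24.2 and 26.96 FPKM in WT seedlings (-3.45 ± 0.09 SE), and EPFL9, a mesophyll peptide that promotes stomata, was lower (-3.13). The stomatal entry factors SPCH and MUTE did not pass the test, the receptor genes ERL1 and ERL2 were higher (3.28 and 2.07), and of 15 stomatal genes 2 were higher and 5 lower. Of 13 tested trichome genes 7 were lower and 1 higher (median -1.22). ZFP8, which promotes trichomes on inflorescence organs, had 2.31, 2.797 and 4.81 FPKM in emf1-2 seedlings, against 53.3, 51.5 and 51.7 FPKM in WT seedlings (-3.67 ± 0.21), and TOE1, an AP2 factor better known as a repressor of flowering, had -2.01. Of 23 tested wax and cutin genes 11 were higher and 2 lower (median 0.95), and 8 were higher with median-of-ratios scaling. CER1 (AT1G02205, chromosome 1, 418416 to 422579), which makes wax alkanes, had 253, 232 and 188 FPKM in emf1-2 seedlings, against 12, 14.6 and 14.8 FPKM in WT seedlings (3.92 ± 0.17), its partner CER3 had 2.4, and the wax ester synthase gene WSD1 had 3.59.

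Lipid transfer proteins carry lipids to the surface of epidermal cells. Of 12 tested genes 6 were higher and 1 lower, and their sum was 12179, 14104 and 16373 FPKM in emf1-2 seedlings, against 1205, 1319.6 and 1308 FPKM in WT seedlings. LTP2, an epidermal member, had 3609, 5125 and 6583 FPKM in emf1-2 seedlings, against 62.4, 102 and 76.3 FPKM in WT seedlings (5.96 ± 0.25 SE), and LTP1, listed as LP1, had 3101, 3203 and 3878 FPKM in emf1-2 seedlings, against 449, 519 and 466 FPKM in WT seedlings (2.82 ± 0.12). These were among the most abundant nuclear transcripts of the mutant, and they sit in a larger superfamily with 2S albumins in which 25 of 77 tested genes were higher and 25 lower.

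More auxin and cytokinin response genes were lower than higher. Of 11 tested auxin carriers 7 were lower and none higher (median -1.34). PIN3 (AT1G70940, chromosome 1, 26742940 to 26746469), which redistributes auxin in bending organs, had 5.79, 4.01 and 5.47 FPKM in emf1-2 seedlings, against 47.6, 54.2 and 50.9 FPKM in WT seedlings (-3.1 ± 0.13 SE), and PIN4 had -2.96. Of 9 tested auxin synthesis genes 6 were lower, and YUC4, which acts in flowers and organ tips, was higher (1.99). Of 24 Aux/IAA repressors 11 were lower and none higher, with 9.0, 7.48 and 7.22 FPKM in emf1-2 seedlings, against 96.8, 100.1 and 98.4 FPKM in WT seedlings for IAA7 (-3.49 ± 0.09). SAUR genes, small growth genes induced by auxin, had 34 lower and 6 higher members of 60 tested (median -1.22), from AT4G34760 (-4.06) to SAUR36 (2.46). Of 9 tested type-A response regulators, feedback inhibitors that cytokinin induces, 8 were lower and none higher (median -1.68). ARR16 had 0.714, 0.353 and 0.535 FPKM in emf1-2 seedlings, against 10.8, 11.2 and 10.3 FPKM in WT seedlings (-2.94 ± 0.12), and ARR7 and ARR4 had -2.44 and -2.36.

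Gibberellin and jasmonate genes were mixed. Of 7 GASA peptide genes 2 were higher and 3 lower: besides GASA6, GASA4 had 142, 142 and 159 FPKM in emf1-2 seedlings, against 700.2, 814 and 653 FPKM in WT seedlings (-2.28 ± 0.10 SE), while AT5G14920 had 2010, 1709 and 1646 FPKM in emf1-2 seedlings, against 316, 365 and 374 FPKM in WT seedlings (2.34 ± 0.13). Of 8 tested gibberellin oxidases 2 were higher and 1 lower. Of 20 jasmonate genes 6 were higher and 3 lower (median 0.74). The largest were the storage-like acid phosphatases VSP1 and VSP2, jasmonate reporters that also accumulate in flowers, with 300.3, 398 and 270.1 FPKM in emf1-2 seedlings, against 4.14, 6.103 and 6.76 FPKM in WT seedlings for VSP1 (5.6 ± 0.22) and a log2 fold change of 4.29 for VSP2. Within the synthesis pathway AOC4 was higher (2.19) and AOS, AOC1 and AOC2 were lower (-1.79, -2.17 and -1.68), and the repressor genes JAZ1 and JAZ10 were higher (1.98 and 1.37).

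More cell wall and water channel genes of growing tissue were lower than higher. Of 29 tested aquaporins 17 were lower and 5 higher (median -1.58). TIP2;2, a vacuolar water channel of roots, had 5.52, 3.46 and 3.41 FPKM in emf1-2 seedlings, against 175, 209.6 and 219 FPKM in WT seedlings (-5.32 ± 0.20 SE), and TIP2;3 had -4.92. TIP3;1, the seed form, ran against the family and had 60.4, 114 and 82.8 FPKM in emf1-2 seedlings and was listed at 0 in all 3 WT libraries. Expansins loosen walls, and their list here also held expansin-like genes and PNP-A. Of its 26 tested genes 11 were lower and 3 higher, PNP-A (2.91) being among the higher ones. Of 30 xyloglucan endotransglucosylases 15 were lower and 3 higher. EXPA16 and XTH17 both had log2 fold changes of -4.26, and XTH9, known from young shoot tissue, had 441, 360.4 and 397 FPKM in emf1-2 seedlings, against 114, 112 and 117 FPKM in WT seedlings (1.79 ± 0.08). Extensins and related proline-rich wall proteins had 24 lower and 9 higher genes of 46 tested, EXT13 having a log2 fold change of -4.78. Of 21 tested xylem and lignin genes 12 were lower and 3 higher (median -1.31), among them XCP2, a protease of dying vessel cells, with 4.16, 3.89 and 3.29 FPKM in emf1-2 seedlings, against 41.3, 53.7 and 49.8 FPKM in WT seedlings (-3.36 ± 0.12). CAD5, a lignin alcohol dehydrogenase, was higher (2.45).

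**Figure D4:**
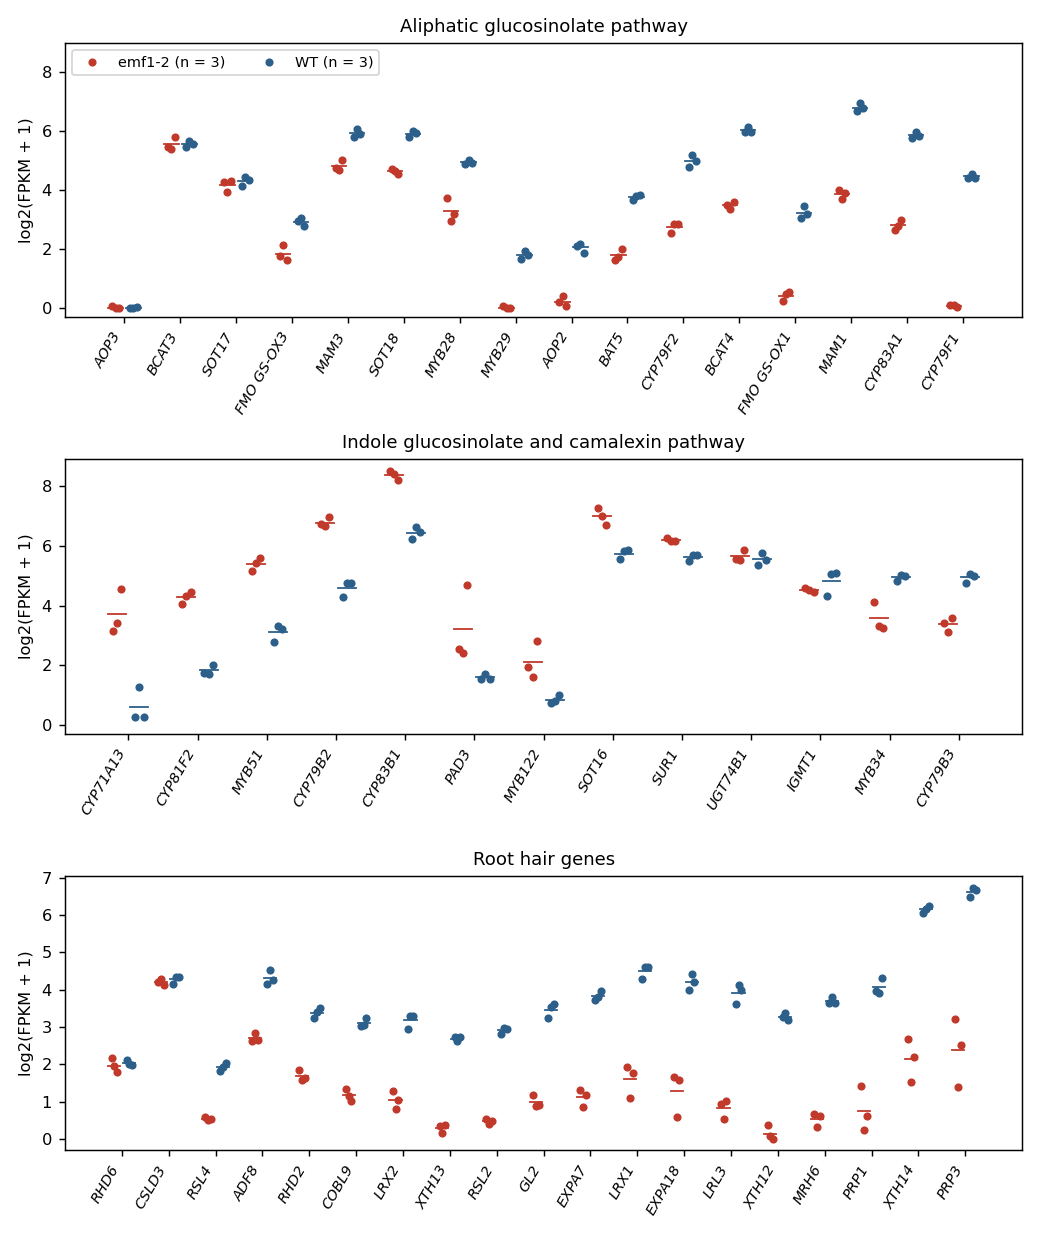
Expression in each library (vertical axis, log2(FPKM + 1)) of aliphatic glucosinolate, indole glucosinolate and camalexin, and root hair genes, 1 panel a list, with emf1-2 libraries left of WT libraries, 1 point a library and a line at each group mean. CYP79F1 lies at 0.0943, 0.0742 and 0.0231 FPKM in emf1-2, against 20.5, 22.6 and 20.4 FPKM in WT, while CYP83B1 of the indole branch lies at 360.2, 337 and 297 FPKM in emf1-2, against 74.4, 97.2 and 87.3 FPKM in WT.

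The branches of glucosinolate synthesis, which make defence compounds of the cabbage family from methionine or tryptophan, moved apart. In the aliphatic, methionine-derived branch 13 of 16 tested genes were lower and none higher (median -1.80), and the sum was 166, 152 and 181 FPKM in emf1-2 seedlings, against 493, 581 and 529 FPKM in WT seedlings. CYP79F1 (AT1G16410, chromosome 1, 5608682 to 5612064), its entry enzyme, had 0.0943, 0.0742 and 0.0231 FPKM in emf1-2 seedlings, against 20.5, 22.6 and 20.4 FPKM in WT seedlings (log2 fold change -4.38 ± 0.34 SE). Its regulators MYB28 and MYB29 were lower as well (-1.65 and -1.77), as were the chain elongation enzyme MAM1 (-2.93) and CYP83A1 (-3.05). In the indole and camalexin list 8 of 13 genes were higher and 2 lower (median 1.26), and the sum was 854, 794 and 815 FPKM in emf1-2 seedlings, against 305, 395 and 376 FPKM in WT seedlings. CYP83B1 had 360.2, 337 and 297 FPKM in emf1-2 seedlings, against 74.4, 97.2 and 87.3 FPKM in WT seedlings (1.93 ± 0.10), CYP71A13 of camalexin synthesis had 3.11, and the regulator MYB51 had 2.29. The paralogues CYP79B2 and CYP79B3, which start the indole branch, differed in sign, at 2.18 and -1.57, and MYB34 was lower (-1.38).

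More defence regulators were higher than lower, with different degrees of spread. Of 63 tested WRKY factors 31 were higher and 2 lower (median 0.93), with 84.95, 97.4 and 86.1 FPKM in emf1-2 seedlings, against 7.798, 10.8 and 9.95 FPKM in WT seedlings for WRKY18 (3.12 ± 0.44 SE). Of 12 tested salicylate genes 6 were higher and none lower. ICS1, which makes salicylate precursors, had 12.02, 15.3 and 18.7 FPKM in emf1-2 seedlings, against 4.14, 4.56 and 4.16 FPKM in WT seedlings (1.61 ± 0.15), and PBS3, which acts after it, had 9.82, 8.22 and 18.2 FPKM in emf1-2 seedlings, against 0.456, 0.475 and 0.516 FPKM in WT seedlings (3.07 ± 0.22). PR1, the common marker of the response, had 116, 9.31 and 812 FPKM in emf1-2 seedlings, against 4.59, 19.8 and 0.993 FPKM in WT seedlings, and although it was called (limma adjusted p = 0.0165) its groups overlapped, as they did for PR2 and PR5. Defensins split, 4 of 7 tested genes being higher and 3 lower. LCR67 had 68.4, 69.3 and 114 FPKM in emf1-2 seedlings and was listed at 0 in all 3 WT libraries, and LCR68 had 12.98, 6.16 and 6.81 FPKM in emf1-2 seedlings, against 125, 156 and 135 FPKM in WT seedlings (-3.91 ± 0.21). Glutathione S-transferases, which conjugate reactive compounds, had 19 higher and 6 lower genes of 49 tested, including GSTF6 (4.53) and GSTF7 (4.33).

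Cold and drought genes protect cells from freezing and water loss. Of 16 cold and drought genes 9 were higher and 1 lower (median 1.44). RD29B, an abscisic acid response gene, had 170.1, 88.4 and 47.7 FPKM in emf1-2 seedlings, against 0.179, 0.151 and 0.429 FPKM in WT seedlings (6.18 ± 0.34 SE), and RD20 and KIN2 had 4.58 and 3.96. A list of heat shock proteins and heat shock transcription factors had 7 higher genes and 1 lower gene of 32 tested, with HSP18.2 at 2.61. The lower gene was the factor HSFA6B (-1.18), and the factor HSFA8 (1.30) was among the higher genes. In the flavonoid pathway 5 of 15 tested genes were higher and 2 lower, but 1 was higher when the level for testing was set from the emf1-2 and WT libraries alone, and 8 at a pseudocount of 0.1. The late anthocyanin genes DFR, LDOX and TT19 varied between emf1-2 libraries: DFR had 0.801, 2.51 and 9.95 FPKM in emf1-2 seedlings, against 0.0387, 0.127 and 0.0994 FPKM in WT seedlings (1.92 ± 0.47), and replicate 3 was highest for all 3 of these genes. The early enzyme gene TT4 did not pass the test. Of 17 clock genes 3 were higher and 3 lower (17.6% each way), near the 13.7% and 12.4% of all tested genes. They included PRR5 (1.71) and CHE (-2.52), and the hour of harvest was not given in the sources used here.

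Few genes of the Polycomb machinery were called besides EMF1, although nearly all tested members had positive log2 fold changes. Of 23 tested genes for Polycomb and associated chromatin proteins 2 were higher and none lower, the other being VIN3, a cold-induced partner of PRC2, with 2.31, 2.296 and 1.96 FPKM in emf1-2 seedlings, against 0, 0 and 0.0487 FPKM in WT seedlings (1.65 ± 0.11 SE). The PRC2 methyltransferase gene CLF had 11.7, 11.2 and 9.36 FPKM in emf1-2 seedlings, against 9.17, 9.56 and 7.98 FPKM in WT seedlings and SWN had 24.9, 28.1 and 27.4 FPKM in emf1-2 seedlings, against 15.8, 15.8 and 17.6 FPKM in WT seedlings, and neither reached the fold threshold. The endosperm genes MEA and FIS2 did not reach the level for testing. Over the list, 8.70% of tested members were called higher, against 13.7% of all tested genes. Small rises were common, with 22 positive log2 fold changes, 1 negative and a median of 0.49, against 0.19 for all tested genes. On the median-of-ratios scale these medians were 0.30 and 0.019.

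Transcription factor families differed in their balance. Of 74 tested NAC factors 32 were higher and 6 lower (median 0.76), with 55.7, 62.1 and 61.5 FPKM in emf1-2 seedlings, against 0.369, 0.232 and 0.211 FPKM in WT seedlings for NAC019 (5.58 ± 0.21 SE), a factor of drought and jasmonate response. MADS-box genes had 23 higher and 5 lower members of 44 tested, and most of the 98 annotated members did not reach the level for testing. B3 and YABBY genes had 10 higher and 2 lower members of 21, including REM1 (5.66), known from floral meristems. KNOX, BEL and WOX genes had 13 and 4 of 30. In the bHLH family higher and lower genes were nearly equal, 16 and 18 of 99 (16.2% and 18.2%), against 13.7% and 12.4% of all tested genes. HBI1, a promoter of cell elongation, had 2.74, 1.42 and 0.688 FPKM in emf1-2 seedlings, against 75.7, 72.2 and 72.3 FPKM in WT seedlings (-4.91 ± 0.22), and CES, a brassinosteroid response factor, had 20.1, 34.6 and 28.8 FPKM in emf1-2 seedlings and was listed at 0 in all 3 WT libraries. MYB factors had 27 higher and 18 lower genes of 93, from MYB5 (3.71), which acts in seed coats and trichomes, to MYB16 (-3.38), which acts in petal epidermis and the cuticle.

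**Figure D5:**
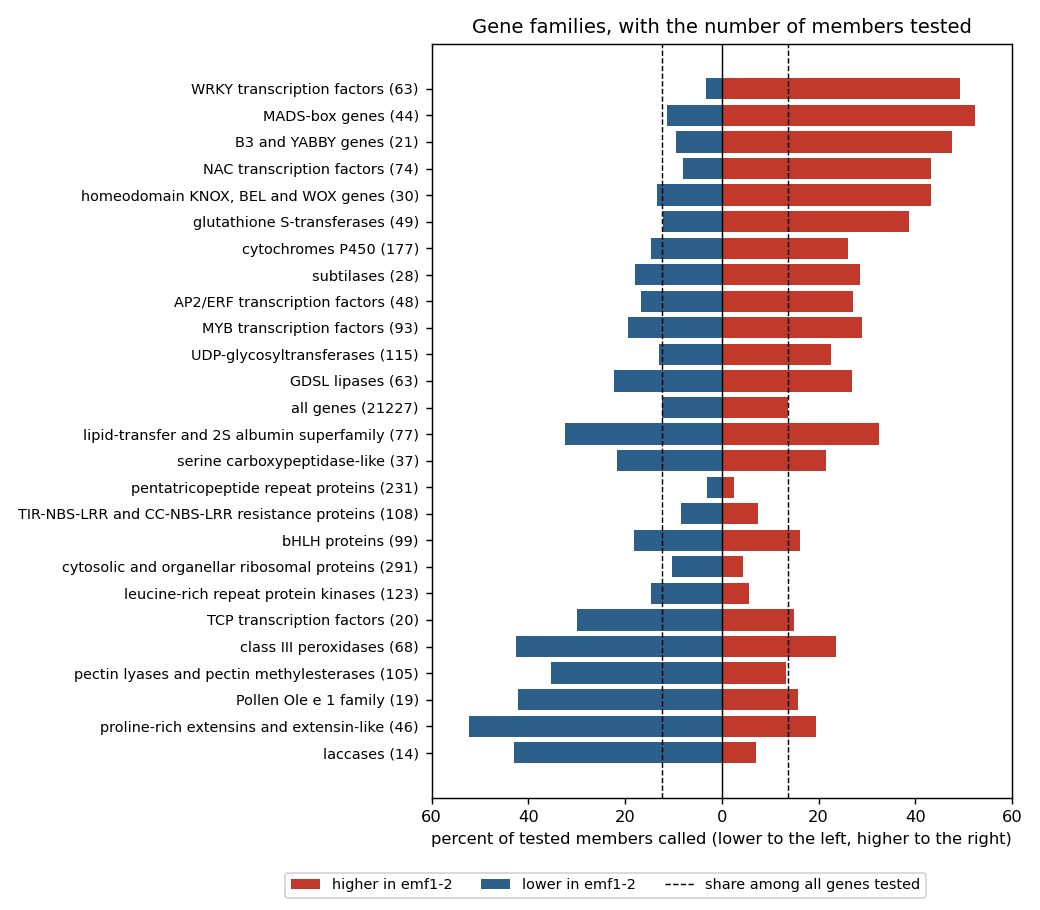
Share of tested members called higher and lower in emf1-2 over WT (horizontal axis, percent) for gene families, 1 row a family, with the number of tested members in brackets and the shares over all tested genes drawn as dashed lines at 13.7% for higher and 12.4% for lower. The WRKY, NAC and MADS-box rows reach far to the higher side, and class III peroxidases and extensins to the lower side.

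Among enzyme families, class III peroxidases, which cross-link walls and make or use hydrogen peroxide, had 29 lower and 16 higher genes of 68 tested (median -0.53). AT5G58400 had a log2 fold change of 5.21, and AT4G26010, a peroxidase of root hairs, had -4.04. Cytochromes P450 had 46 higher and 26 lower genes of 177, and UDP-glycosyltransferases 26 and 15 of 115. Pectin lyases and methylesterases had 14 higher and 37 lower genes (13.3% and 35.2%) of the 105 that were tested out of 223. GDSL lipases had 17 and 14 of 63 (27.0% and 22.2%), and serine carboxypeptidase-like genes 8 and 8 of 37 (21.6% each), with 13 lower at a pseudocount of 0.1. SCPL7 of the second family had 136, 152 and 113 FPKM in emf1-2 seedlings, against 6.31, 6.35 and 6.46 FPKM in WT seedlings (4.18 ± 0.12 SE).

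Set against clf28swn7 in the same fit, emf1-2 had 1175 higher genes (5.54% of 21227) and 1773 lower genes (8.35%). Both contrasts use the same emf1-2 libraries, so they are given side by side and not as independent results. Seed genes differed between the mutants. All 8 storage protein genes were lower in emf1-2 than in clf28swn7 (median log2 fold change -7.04), and so were 9 of 10 oil body genes, 13 of 19 LEA genes and 9 of 14 embryo regulators. SESA3 had 39.9, 1.48 and 1.35 FPKM in emf1-2 seedlings, against a mean of 5690.1 FPKM in clf28swn7. Floral organ identity genes went the other way, 7 of 12 being higher and 2 lower in emf1-2. The exceptions included AP1, with 2.27, 1.703 and 2.49 FPKM in emf1-2 seedlings and a mean of 7.23 FPKM in clf28swn7 (-1.38).

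Few photosystem genes were called between the mutants, none of the 13 photosystem I genes and 1 of 13 photosystem II genes being called in this contrast. Among antenna genes 1 was higher and 4 lower in emf1-2, and LHB1B1 was the higher one, at 26.4, 16.6 and 6.64 FPKM in emf1-2 and a mean of 0.757 FPKM in clf28swn7 (3.16). DNA replication genes gave no call. Of the root lists, 7 of 19 root hair, 6 of 13 endodermis, 6 of 12 root meristem and cap and 7 of 19 ion transport genes were lower in emf1-2 and none was higher, while of 14 suberin genes 1 was higher and none lower and of 16 iron genes 1 was higher and 2 were lower. Of 15 flavonoid genes 10 were lower and 1 higher, and TT4, the entry enzyme chalcone synthase, had 34.1, 35.1 and 32.3 FPKM in emf1-2 and a mean of 1047 FPKM in clf28swn7 (-4.91). Of 12 salicylate genes 7 were higher and none lower, and WRKY70 had 17.03, 22.2 and 40.3 FPKM in emf1-2 and a mean of 4.81 FPKM in clf28swn7 (2.16). EMF1 was not called between the mutants, at 47.03, 57.4 and 46.2 FPKM in emf1-2 and a mean of 54 FPKM in clf28swn7.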

How the data were processed

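RNA-seq libraries of whole seedlings at 10 DAG were prepared by the authors, who aligned the reads with HISAT2 against TAIR10. Expression per gene and library was deposited as FPKM, which StringTie and ballgown had estimated, as the processing notes and methods state. Versions, the strand setting and filters are not given in the sources used here, and replicates were not pooled. Without strand information, overlapping genes cannot be told apart, and paralogues such as the albumin, RBCS, antenna and lipid transfer genes may share reads. Gene names, types and coordinates came from RefSeq TAIR10.1.

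FPKM columns were matched to libraries by their titles. Values were tested as log2(FPKM + 1) with limma 3.58.1 in R 4.3.3, with all 12 libraries in one fit and default eBayes settings, for the 21227 of 33602 genes that reached 1 FPKM in 3 or more libraries. Calls follow the criteria of the methods, and p-values were adjusted over all tested genes by the Benjamini-Hochberg method. Fold changes on this scale understate the change of low genes, and those of genes listed at 0 in WT depend on the pseudocount of 1. On simulated data the fit recovered all of 200 changed genes. These were set with changes above the fold threshold and were not low in WT, so low genes and changes near the threshold were not tested. Calls among the unchanged genes of those data are not given here. Tables and plots were made with Python 3.11.15, pandas 2.3.3, numpy 2.4.6 and matplotlib 3.10.9.

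The gene lists and named members were chosen with earlier results of these data known, so list counts are descriptions and no list was tested as a set. Named by rule were EMF1, the 10 largest separated changes each way, up to 3 called members each way and the 2 most abundant members of each list, and every member of lists of 12 or fewer. Other genes in the text were named after their values were seen. Alternatives changed the pseudocount (to 0.1), the filter, the libraries in the fit, the p-value, the eBayes settings, the scaling (TPM or median-of-ratios), the block (replicate number) or the replicates, each of which was left out in turn, with rescaling to the sum of nuclear genes chosen after seeing the data. The chromatin accessibility and ChIP-seq data and the ring1ab contrast were not analysed here.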

Additional observations from a re-analysis of the deposited data

How the results depend on the processing

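Counts of higher and lower genes against WT stayed within 1.5 times of 2909 and 2634 under every alternative run, with extremes at a pseudocount of 0.1 (3749 and 3255) and with median-of-ratios scaling (2284 and 3146). TPM gave 3404 and 2725, and the sum of nuclear genes, chosen after seeing the data, 3356 and 2681. Leaving out a replicate gave 2725 to 3044 higher and 2579 to 2729 lower genes. The median log2 fold change of all genes, 0.19, was 0 with no filter on low values, where many genes listed at 0 enter, and 0.019 with median-of-ratios scaling, and it lay between 0.16 and 0.21 when a replicate was left out. With the replicate number as a block 2906 genes were higher and 2634 lower. Deviations of libraries of the same number from their group means correlated at -0.07, -0.08 and -0.14, so the numbers were not read as pairs. No named gene changed sign with a call on either side. Of 158 counts of list members, 11 moved by over 1.5 times with median-of-ratios scaling, 14 at a pseudocount of 0.1, 8 on the TPM scale and 1 to 6 when a replicate was left out. Higher ribosomal protein genes numbered 13, but 2 with median-of-ratios scaling, 22 on the TPM scale and between 8 and 29 when a replicate was left out, and higher pentatricopeptide repeat genes 6, but 1 with median-of-ratios scaling, 12 on the TPM scale, 29 at a pseudocount of 0.1 and 3 without WT replicate 1. Higher NBS-LRR genes numbered 8, but 19 at a pseudocount of 0.1 and 14 on the TPM scale. Leucine-rich repeat kinases, 7 higher and 18 lower, had 14 and 29 at a pseudocount of 0.1, 28 lower with median-of-ratios scaling and 13 higher on the TPM scale. Higher xylem and lignin genes fell to 1 and higher aquaporins to 3 with median-of-ratios scaling. The causes were not tested. The methods give an approximate number of reads for all libraries alike, and the deposited FPKM hold no read counts, so the counting error of genes near 1 FPKM was not computed.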

Other observations

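Some large families had few calls. Of 231 tested pentatricopeptide repeat genes, which process organelle RNA, 6 were higher and 7 lower, and of 108 tested NBS-LRR resistance genes, intracellular immune receptors, 8 were higher and 9 lower, shares below the 13.7% and 12.4% of all tested genes. Ribosomal protein genes had 13 higher and 30 lower members of 291. Leucine-rich repeat kinases had 7 higher and 18 lower members of 123, or 28 lower with median-of-ratios scaling. Their share of higher genes (5.69%) was below that of all tested genes, and their share of lower genes (14.6%) was near it. Of 30 tested mitochondrion-encoded genes 2 were higher and 3 lower, beside the plastid-encoded genes, of which 81 of 94 were lower.

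More laccase and Pollen Ole e 1 genes were lower than higher. Laccases, which polymerise lignin, had 1 higher and 6 lower genes of 14, and the Pollen Ole e 1 family 3 and 8 of 19. NPF transporters split, with 9 higher and 4 lower of 25, or 9 and 7 with median-of-ratios scaling. NRT1.8, which removes nitrate from the xylem, had 38.5, 50.6 and 35.1 FPKM in emf1-2 seedlings, against 0.173, 0.610 and 0.577 FPKM in WT seedlings (4.86 ± 0.18 SE), while NRT1.5, which loads it, was lower. Among non-coding genes, 8 higher and 10 lower of 153 tested lncRNA genes and 2 higher and 7 lower of 38 tested miRNA genes were called, in libraries whose RNA selection is described in conflicting ways.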
